A study of Mus musculus with 6 samples.

Results

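The comparison described here is that of RW4 mouse embryonic stem cells given Shld1 with untreated RW4 cells. It was chosen by the array titles and holds 4 of the 6 arrays of the series: 2 arrays of cells given 1 µM Shld1 and 2 of cells given no drug. Probe sets with exactly 1 gene symbol entered it, the brightest where a gene had several, which gave 19938 genes, and statements on size are limited to the 8729 genes whose mean signal over the 6 arrays was above 5 on the deposited log2 scale. The other 2 arrays, of cells given 1 µM 4-hydroxytamoxifen (4OHT), served to estimate the spread.

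RW4 cells are cultured stem cells derived from a mouse embryo. Both groups, per the labels, were kept undifferentiated on gelatin in serum with leukemia inhibitory factor, β-mercaptoethanol and added nucleosides, and the RNA was DNase treated. The labels give the untreated arrays the induction system "WT" and the Shld1 arrays "FKBP", and do not say whether the latter cells carried an FKBP fusion protein. The treatment length was not given in the sources used here. Arrays of a group are named duplicates without a word on separate cultures; the p-values thus reflect the spread of these samples alone, which can be technical.

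Shld1 is a synthetic ligand of FKBP12, the small cytosolic prolyl isomerase encoded by Fkbp1a. It was designed to bind a mutated, destabilised FKBP12 domain: without ligand, proteins fused to that domain are degraded by the proteasome, and with ligand they persist. FKBP12 itself is the receptor of the drugs FK506 and rapamycin, whose complexes with it inhibit calcineurin and mTOR, and it binds type I receptors of the TGF-beta superfamily and intracellular calcium release channels. Transcripts of these pathways were therefore described next to those of pluripotency, protein turnover and stress.

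Limma called 0 of the 19938 genes (0%) at an adjusted p under 0.05, and the smallest adjusted p was 0.986 (limma, Benjamini-Hochberg over 19938 genes). At an unadjusted p under 0.05 there were 866 genes, 480 higher with Shld1 (2.41%) and 386 lower (1.94%), against 997 that a threshold of 0.05 gives by itself. Among the 8729 genes above 5 there were 186, against 436 that the threshold gives by itself. Of the 186, 58 were higher (0.664%) and 128 lower (1.47%). Differences were small: above 5 the median absolute log2 difference was 0.096, or 1.07-fold, and for 95% of genes it was at most 0.305, or 1.24-fold. The largest positive difference above 5 was 0.95 and the largest negative one -0.87, so none of these genes differed 2-fold. For 95% intervals the count inside 1.5-fold in either direction was 7317 of the 8729 genes (83.8%), and inside 2-fold it was 8689 (99.5%).

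Over 1.5-fold, 15 genes above 5 stood apart: 4 higher with Shld1 (0.0458%) and 11 lower (0.126%). The 4 higher were Nupr1l, Mir194-1, Rbmxl2 and Nova2. The 11 lower were Timm21, Snora62, Pdp2, Set, Snora70, Snora20, B3gntl1, Ciart, Ggcx, Stk38l and Tmem177. Leaving out 1 array moved the number over 1.5-fold to 47 without untreated replicate 1, 37 without untreated replicate 2, 193 without Shld1 replicate 1 and 36 without Shld1 replicate 2. Of the genes next to the level of 5, Patl2 and Rnf122 just below had differences of 0.09 and 0.21, and Trib1 and P3h4 just above had 0.26 and 0.06. So few genes do not show whether genes on either side of that level are alike, and the values below 5 carry no statement of size.

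**Figure D1:**
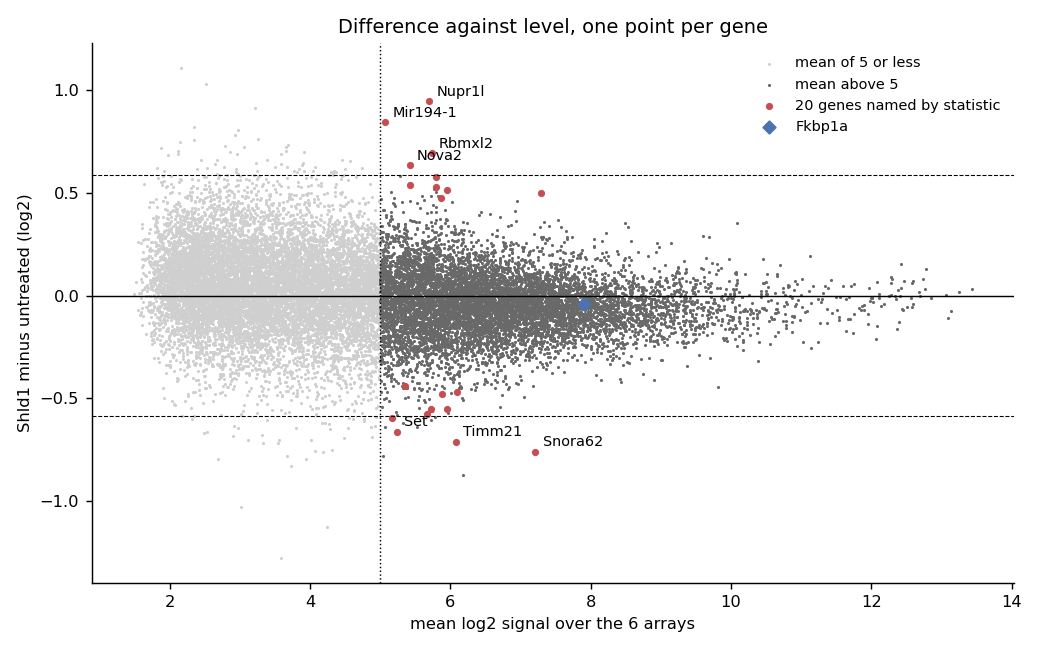
Log2 difference between Shld1 and untreated cells (vertical axis) against mean log2 signal over the 6 arrays (horizontal axis), 1 point per gene for 19938 genes; the dotted line marks a mean of 5 and the dashed lines 1.5-fold. The points close in on 0 with rising signal, 15 of the 8729 genes above 5 lie beyond the dashed lines, and Fkbp1a lies at -0.04.

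The size of these differences was read against the spread within each group. Above 5, the SD over genes of the log2 difference between the arrays of a group was 0.166 for the untreated pair, 0.219 for the 4OHT pair and 0.239 for the Shld1 pair. The Shld1 arrays were over 1.5-fold apart from each other at 350 genes above 5 (4.01%) and the untreated arrays at 41 (0.47%). Shld1 replicate 2 had the narrowest distribution, with an SD of 2.24 over all probe sets against 2.35 on Shld1 replicate 1 and 2.33 and 2.34 on the untreated arrays. Relative to the untreated mean, that array was higher by a median of 0.16 for the 4479 genes under 3, and lower by medians of -0.10, -0.12 and -0.12 for genes at 5 to 7, 7 to 9 and 9 to 11. Shld1 replicate 1 stayed within 0.04 of 0 in these bins. The part of this compression in single differences was not tested.

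Over the genes above 5, the Shld1 arrays lay above both untreated arrays at 932 genes (10.7%) and below both at 2034 (23.3%); over all genes these shares were 15.2% and 17.3%. The excess of lower genes depended on the scaling. As deposited, 31.4% of the genes above 5 that did not overlap were higher with Shld1, against 48.8% after quantile normalization, 47.2% after centring on the 75th percentile and 50% after cyclic loess. The same held at an unadjusted p under 0.05, where the higher share was 31.2% as deposited and 46.1%, 46.6% and 46.5% after these scalings. The median difference above 5 was -0.05 as deposited.

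Among single genes, Nupr1l had the largest positive statistic above 5 (probe set 10526101). It encodes a paralogue of Nupr1, a small chromatin-associated protein induced by cell stress. Nupr1l was at 5.40 and 5.15 on the untreated arrays and at 6.15 and 6.29 on the Shld1 arrays. Both Shld1 arrays lay above both untreated arrays, by 0.75 at the nearest, and the 4OHT arrays, at 5.63 and 5.58, lay between the groups. The difference was 0.95 (SE 0.15, 95% interval 0.61 to 1.28), or 1.93-fold, with an adjusted p of 0.986 (limma). Nupr1 itself did not share it: it was at 8.02 and 8.31 untreated and at 8.09 and 7.87 with Shld1, a difference of -0.19 (SE 0.17), and its groups overlapped.

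Because Nupr1l and Nupr1 differed in this way, their promoters are shown for comparison, from RefSeq on build GRCm38.p6, each from 250 bases before to 50 bases after the annotated start. They were searched on both strands for TTGCATCA (TGATGCAA on the other strand), the composite C/EBP-ATF element of amino acid and endoplasmic reticulum stress genes, printed in capitals where found.
Nupr1l, chr5:129908290-129908589, plus strand: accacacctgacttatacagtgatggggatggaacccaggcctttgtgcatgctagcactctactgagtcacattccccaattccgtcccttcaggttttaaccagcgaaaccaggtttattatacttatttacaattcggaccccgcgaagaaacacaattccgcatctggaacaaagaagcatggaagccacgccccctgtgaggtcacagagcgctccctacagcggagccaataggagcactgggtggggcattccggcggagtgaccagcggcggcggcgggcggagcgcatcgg
Nupr1, chr7:126625421-126625720, minus strand: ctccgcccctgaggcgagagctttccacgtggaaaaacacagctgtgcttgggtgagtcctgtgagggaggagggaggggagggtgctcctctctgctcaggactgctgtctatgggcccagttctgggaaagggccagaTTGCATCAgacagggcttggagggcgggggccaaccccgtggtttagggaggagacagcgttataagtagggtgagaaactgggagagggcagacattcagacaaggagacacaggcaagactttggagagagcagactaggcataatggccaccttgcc
The Nupr1 window held 1 match and the Nupr1l window 0. The 8 letters were found in the windows of 5 of the 28 stress response genes with a promoter in the table (17.9%). Over all promoters it was 279 of 27025 (1.03%). Above 5 it was 4 of 27 list genes (14.8%), against 50 of the 7108 array genes (0.703%). The list was made of known genes of this response, so these shares describe the list. Whether the element bears on the difference between Nupr1l and Nupr1 was not tested.

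Mir194-1 (probe set 10352499), a precursor of the microRNA miR-194, came next. It was at 4.54 and 4.75 untreated and at 5.46 and 5.52 with Shld1, and the groups did not overlap. The difference was 0.84 (SE 0.15, 95% interval 0.52 to 1.17; adjusted p = 0.999, limma). Its untreated values were below 5, and its mean over the 6 arrays, 5.07, only just passed that level. Mir17 (probe set 10416948), from a precursor cluster that is well expressed in stem cells, lay the other way. It was at 5.58 and 5.47 untreated and at 4.93 and 4.96 with Shld1, a difference of -0.58 (SE 0.19; adjusted p = 0.999, limma). On the 4OHT arrays Mir17 was at 5.53 and 4.94, so it spanned both groups. Mir99b, the next precursor by statistic, was at 5.70 and 5.75 untreated and at 5.79 and 6.25 with Shld1, a difference of 0.30 (SE 0.19). Of 291 microRNA precursors measured, 38 were above 5, and their median difference was -0.03. Without overlap 5 of the 38 were higher and 3 lower, beside shares of 10.7% and 23.3% over all genes above 5. The array has a single value per precursor and does not separate its arms. The mature arms of the pair with the largest differences are printed 5′ to 3′ from RefSeq, GRCm38.p6, with the seed (bases 2 to 8), which pairs with target transcripts, in capitals.
miR-194-5p: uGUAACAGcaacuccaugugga
miR-194-1-3p: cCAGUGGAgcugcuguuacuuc
miR-17-5p: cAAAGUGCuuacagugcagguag
miR-17-3p: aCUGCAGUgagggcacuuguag
No seed is shared among these 4 arms.

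Rbmxl2 (probe set 10556059), an RNA-binding protein gene known from male germ cells, was at 5.42 and 5.41 untreated and at 6.05 and 6.17 with Shld1. Its untreated arrays were nearly equal, and the difference was 0.69 (SE 0.14; 95% interval 0.38 to 1.00), or 1.62-fold. Nova2, a neuronal splicing regulator, was at 5.01 and 4.92 untreated and at 5.79 and 5.41 with Shld1 (0.64, SE 0.16). With 4OHT it was at 5.71 and 5.68, inside the range of the Shld1 arrays. The remaining 6 of the 10 largest positive statistics belonged to Mrpl47, Magef1, Amn, Plekhf1, Hormad1 and Sp3os, with differences of 0.48 to 0.58. Mrpl47, a mitochondrial ribosomal protein, had a second probe set that differed by 0.29 in place of 0.52. Hormad1, a meiotic chromosome protein, had a dimmer probe set that differed by -0.16 in place of 0.48. Amn encodes the amnionless protein, which works with cubilin in uptake by visceral endoderm; it differed by 0.53 (SE 0.16), and cubilin, Cubn, by -0.27 (SE 0.14).

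On the negative side the largest statistic was that of Timm21 (probe set 10460102), a subunit of the mitochondrial inner membrane import machinery. Timm21 was at 6.21 and 6.59 untreated and at 5.65 and 5.72 with Shld1. The groups were clear of each other by 0.49, and the difference was -0.71 (SE 0.17; adjusted p = 0.999, limma). Snora62, a small nucleolar RNA that guides pseudouridylation, was at 7.16 and 7.41 untreated and at 6.66 and 6.39 with Shld1 (-0.76, SE 0.18). Its 4OHT arrays, at 8.04 and 7.62, lay above both groups. Set, which encodes a histone chaperone and phosphatase inhibitor, was at 5.42 and 5.58 untreated but at 4.51 and 5.16 with Shld1, so its Shld1 arrays were farther from each other than the nearest arrays of the groups. Its second, dimmer probe set differed by -0.22 in place of -0.66. Zfp626 (-0.55), Sft2d2 (-0.58), Pdp2 (-0.59), Cmtm8 (-0.55), Hamp2 (-0.47), Saraf (-0.48) and Crem (-0.44) completed the 10. The 4OHT arrays of these genes did not all take the same side. Those of Cmtm8 (5.45 and 5.85) and Crem (5.31 and 5.26) lay below both untreated arrays. Those of Zfp626 (5.93 and 5.90) and Sft2d2 (5.86 and 5.94) lay inside the untreated range. Pdp2 encodes a phosphatase that activates pyruvate dehydrogenase, Saraf a brake on store-operated calcium entry, and Crem a cyclic AMP responsive transcription factor. Neither group of 10 was drawn from a single family or pathway list: Nupr1l, Mir194-1, Amn and Snora62 were the members of the fixed lists among these 20 genes.

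**Figure D2:**
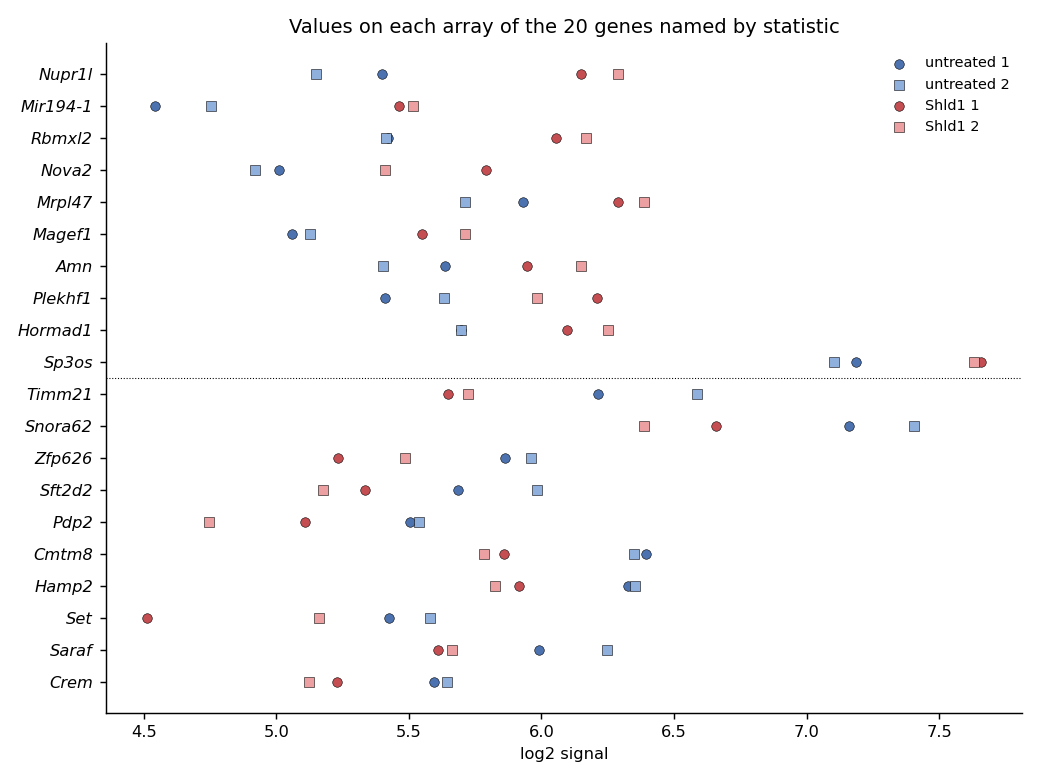
Log2 signal (horizontal axis) on each of the 4 arrays for the 10 genes above 5 with the largest positive statistic (upper block) and the 10 with the largest negative statistic (lower block) among genes whose groups do not overlap. Blue points are untreated and red points Shld1 arrays, circles for replicate 1 and squares for replicate 2; Nupr1l has the widest gap between groups, and the Shld1 arrays of Set and Nova2 are far apart.

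The 4 arrays can be split into 2 pairs, each with its own untreated and its own Shld1 array, so that a difference can be read in pairs that share no array. With arrays paired by their number, 11 genes above 5 differed over 1.5-fold in both pairs, 4 of them in the same direction and 7 in opposite directions. With the numbers crossed there were 9, of which 4 had the same direction. Nupr1l, Mir194-1 and Rbmxl2 were in the same direction both ways, joined by Ggcx, a vitamin K dependent carboxylase, when paired by number and by Snora62 when crossed. For Nupr1l, Mir194-1 and Rbmxl2 the nearest arrays of the groups were 0.75, 0.71 and 0.63 apart, which is over 1.5-fold. Any pairing of these arrays therefore gives the same direction for them, and this is no independent evidence. Nupr1l differed by 0.75 and 1.14 in the pairs by number, and by 1.00 and 0.89 in the crossed pairs. Over the 8729 genes the correlation of the differences was -0.04 by number and 0.08 crossed; genes are not independent replicates, and these values are descriptions with no test. Of the genes with opposite directions by number, Snord15a, Snord16a, Snord82, Snora16a and Snora74a were small nucleolar RNAs.

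FKBP12 and its family were the nearest to the agent's target. Fkbp1a (probe set 10477012) was at 7.87 and 7.93 untreated and at 7.97 and 7.76 with Shld1. The groups overlapped, and the difference was -0.04 (SE 0.14), with a 95% interval of -0.37 to 0.28, or 0.775-fold to 1.21-fold. Fkbp1b, the closest paralogue, which encodes FKBP12.6, was at 5.53 and 5.38 untreated and at 5.40 and 5.30 with Shld1 (-0.10, SE 0.14). Of the 14 family members measured, 11 were above 5, 0 were called, and differences above 5 ran from -0.19 to 0.06 with a median of -0.04, against -0.05 for all genes above 5. Fkbp11 and Fkbp2, both of the endoplasmic reticulum, had the lowest values, -0.19 (SE 0.15) and -0.18 (SE 0.16). Fkbp4 and Fkbp5, co-chaperones of HSP90 on steroid receptors, differed by -0.05 and -0.03, the nuclear Fkbp3 by 0.06 and the mitochondrial Fkbp8 by 0.06. For all 11 the 95% interval lay within 1.5-fold. Over all 14 members the median was -0.04 and turned positive, to 0.04, without Shld1 replicate 2.

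**Figure D3:**
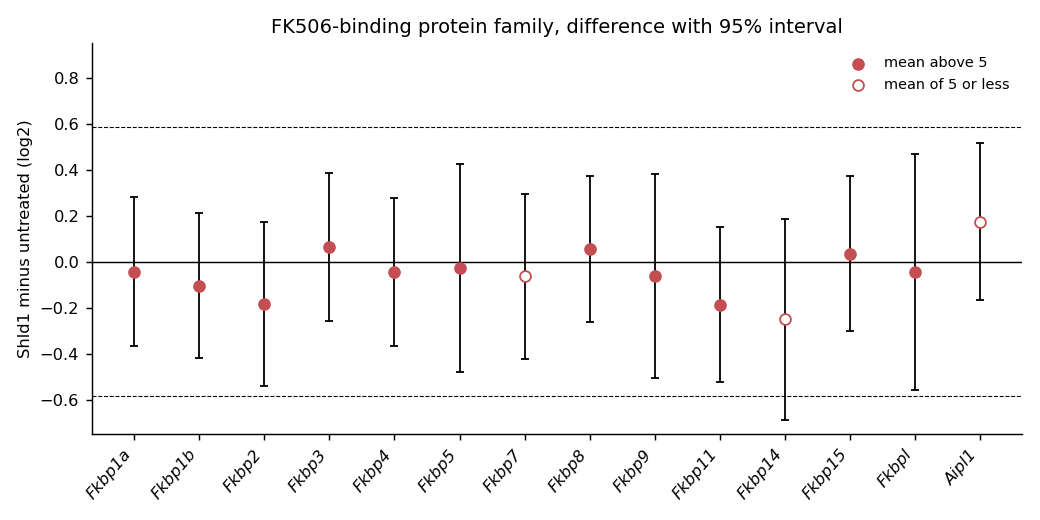
Log2 difference between Shld1 and untreated cells for the 14 measured FK506-binding protein family genes, with 95% intervals from limma as bars; filled points have a mean signal above 5, open points do not, and dashed lines mark 1.5-fold. The intervals of the 11 filled points, Fkbp1a at -0.04 included, all cross 0 and end inside the dashed lines.

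Of the calcineurin and NFAT genes, Ppp3ca, the alpha catalytic subunit of the phosphatase that FK506 inhibits, had the largest statistic. It was at 6.06 and 6.11 untreated and at 5.68 on both Shld1 arrays. The groups were clear of each other by 0.38, and the difference was -0.41 (SE 0.14, 95% interval -0.73 to -0.08; adjusted p = 0.999, limma). The 4OHT arrays, at 5.84 and 6.05, lay between the groups, replicate 2 close to the untreated level. The beta catalytic subunit Ppp3cb differed by -0.16, the gamma subunit Ppp3cc by 0.18 and the regulatory subunit Ppp3r1 by -0.12. Rcan1, a feedback inhibitor of calcineurin that NFAT itself induces, was at 6.21 and 6.11 untreated and at 6.28 and 6.18 with Shld1 (0.07, SE 0.14). The NFAT factors above 5, Nfat5, Nfatc3 and Nfatc4, differed by 0.01, -0.05 and -0.13. Of 14 genes measured, 10 were above 5 with a median of -0.08. Without overlap 4 of the 10 were lower (40%, against 23.3% of all genes above 5) and 0 higher, beside 10.7%. After quantile normalization, centring or cyclic loess it was 3 lower (30%, against 18.2%, 18.8% and 18.1%) and 1 higher. Over the 8729 genes above 5, 1521, 1471 and 1575 were higher after these scalings.

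Among 18 mTOR genes, 17 were above 5 with a median of -0.05. Mtor, the kinase, was at 7.20 and 6.97 untreated and at 7.12 and 6.95 with Shld1 (-0.05, SE 0.17), with overlapping groups. Rptor and Rictor, which define mTORC1 and mTORC2, differed by -0.26 (SE 0.15) and -0.27 (SE 0.15), and Prr5, an mTORC2 partner, by -0.36 (SE 0.18). The list mean was 0.04 above the untreated mean on Shld1 replicate 1 and 0.16 below it on replicate 2, so the arrays lay on opposite sides. The calcium release channels bound by FKBP12 were mostly dim: 1 of 5 measured was above 5, Itpr3, at a difference of -0.12 (SE 0.15).

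For the TGF-beta superfamily receptors, 6 of 13 were above 5 and their median was -0.11. Without overlap 4 of the 6 were lower (66.7%, against 23.3% of all genes above 5) and 0 higher, beside 10.7%. After quantile normalization or centring 2 were lower (33.3%, against 18.2% and 18.8%), and after cyclic loess 3 (50%, against 18.1%). Bmpr1a, a type I receptor for bone morphogenetic proteins, was at 6.63 and 6.78 untreated and at 6.36 and 6.19 with Shld1. The difference was -0.43 (SE 0.16, 95% interval -0.78 to -0.08; adjusted p = 0.999, limma). The activin receptors Acvr1b and Acvr2b differed by -0.13 each (SE 0.14), and Tgfbr1 by -0.08 (SE 0.19). Their target genes did not lean the same way. Of 13 targets, 10 were above 5 with a median of 0.01; Id1, a direct target of bone morphogenetic protein signalling, was at 6.46 and 6.53 untreated and at 6.68 and 6.75 with Shld1 (0.22, SE 0.14), Ccn2 differed by 0.28 (SE 0.14) and the feedback inhibitor Skil by -0.22 (SE 0.15).

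Genes of hypoxia and glycolysis had the lowest list median of the pathway lists above 5. Many of them are targets of hypoxia-inducible factor, which turns cells to glycolysis when oxygen is short, and stem cells use much of this pathway at normal oxygen. Of 28 genes measured, 26 were above 5. None was called, but 19 of the 26 (73.1%) were lower with Shld1 without overlap and 1 was higher, against 23.3% lower and 10.7% higher over all genes above 5. The median was -0.21, against -0.05 for all genes above 5. The mean of the 26 genes was 0.14 below the untreated mean on Shld1 replicate 1 and 0.19 below it on replicate 2, whereas all genes above 5 averaged 0.02 above it and 0.11 below it. On Shld1 replicate 1, the array of wider range, 21 of the 26 were below the untreated mean, and the same 21 were below it on replicate 2 as well. The number below it on both arrays depended on the scaling: it was 15 after quantile normalization, centring or cyclic loess. After quantile normalization, centring or cyclic loess, 14 of the 26 (53.8%) were lower without overlap, against 18.2%, 18.8% and 18.1% of all genes above 5. The list median over the 28 genes, -0.17, was negative under all 17 alternative settings, of which the setting that fitted genes above 5 alone covers 26 of the genes; it came nearest to 0 after centring, at -0.13. The list and its direction were known from earlier results of these data, so this is a description and no independent evidence.

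Within that list, Ankrd37 (probe set 10578515), a hypoxia-inducible ankyrin repeat gene, had the largest statistic. It was at 5.89 and 5.82 untreated and at 5.40 on both Shld1 arrays. The difference was -0.46 (SE 0.15, 95% interval -0.80 to -0.12; adjusted p = 0.999, limma). Aldoa, the main glycolytic aldolase, was at 11.34 and 11.41 untreated and at 11.19 and 11.11 with Shld1 (-0.23, SE 0.15). Its paralogue Aldoc was at 6.76 and 6.82 untreated and at 6.60 and 6.39 with Shld1 (-0.30, SE 0.17). With 4OHT, Ankrd37 was at 5.38 and 5.68 and Aldoc at 6.24 and 6.65, below both untreated arrays as well. Ndrg1 was at 5.66 and 5.48 untreated, at 5.33 and 5.26 with Shld1 and at 4.95 and 5.22 with 4OHT. In these genes the lower signal was thus not particular to Shld1. Further along glycolysis, Tpi1 differed by -0.27, Pfkp by -0.28, Pfkl by -0.22, Pkm by -0.23 and Pgam1 by -0.10. Of the glucose transporters, Slc2a3 was at 10.04 and 10.10 untreated and at 9.88 and 9.82 with Shld1 (-0.22, SE 0.14), and Slc2a1 differed by -0.12 (SE 0.15). Vegfa, an angiogenic factor, differed by -0.23 (SE 0.14). Other members were near 0 or positive: Ldha, which makes lactate, differed by -0.04, the pyruvate dehydrogenase kinase Pdk1 by -0.03 and the hexokinase Hk1 by 0.09. The prolyl hydroxylase Egln3 was at 7.70 and 7.55 untreated and at 7.02 and 7.53 with Shld1, and the mitophagy receptor Bnip3 at 8.86 and 8.80 untreated and at 8.36 and 8.82 with Shld1. In both, most of the difference came from Shld1 replicate 1. Car9, a carbonic anhydrase and a usual hypoxia marker, was below 5 on all 4 arrays and lay the other way, at 3.09 and 3.16 untreated and at 3.37 and 3.65 with Shld1, without overlap.

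The promoter of Ankrd37 is shown because it is the list's leading gene and its window holds the hypoxia element. The window was searched for ACGTG on both strands, the core of the hypoxia response element, printed in capitals; the sequence is from RefSeq, GRCm38.p6, 250 bases before to 50 after the start.
Ankrd37, chr8:45999801-46000100, minus strand: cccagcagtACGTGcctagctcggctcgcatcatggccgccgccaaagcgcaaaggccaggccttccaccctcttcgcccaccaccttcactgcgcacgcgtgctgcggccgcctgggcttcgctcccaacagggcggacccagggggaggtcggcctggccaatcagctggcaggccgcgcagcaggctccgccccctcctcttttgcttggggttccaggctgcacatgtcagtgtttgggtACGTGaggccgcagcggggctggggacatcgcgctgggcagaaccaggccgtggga
It held 2 matches. Of the list's genes, 25 of 28 had a promoter in the table, and 19 of the 25 (76%) held the letters, against 5886 of all 27025 promoters (21.8%) and 2215 of the 7108 array genes above 5 (31.2%). These genes were listed as known targets, so the share describes the list and says nothing of Shld1.

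**Figure D4:**
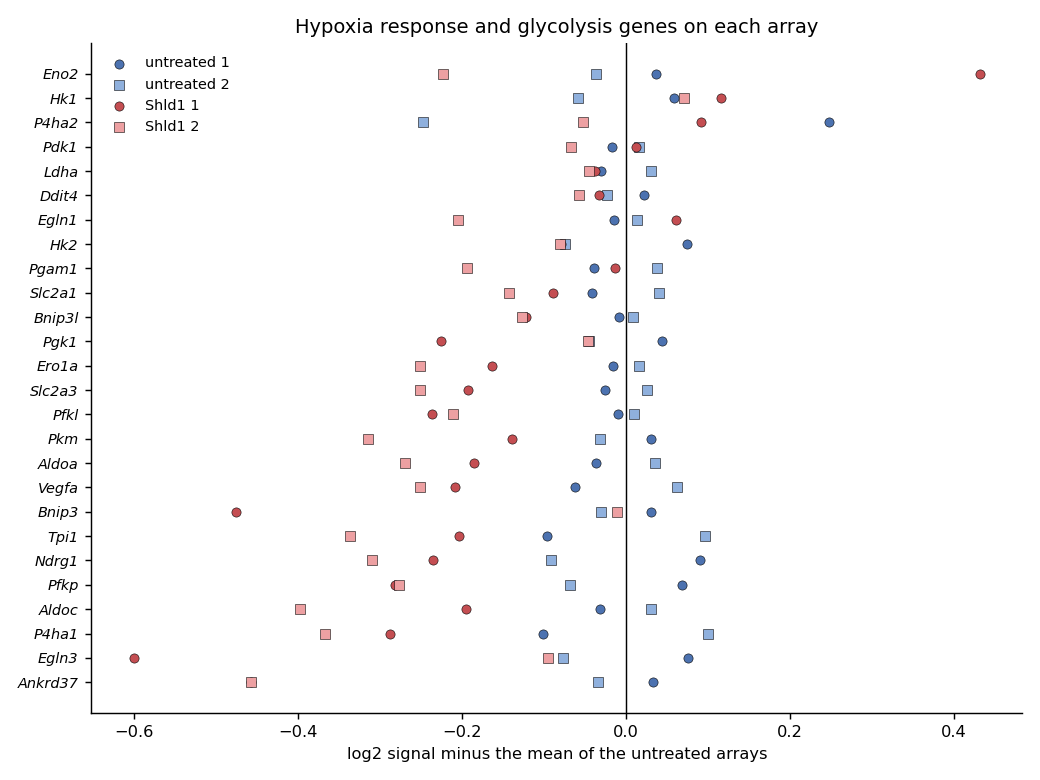
Log2 signal minus the mean of the untreated arrays (horizontal axis) for the 26 hypoxia and glycolysis genes above 5, ordered by their difference, with untreated arrays in blue and Shld1 arrays in red, circles for replicate 1 and squares for replicate 2. Both red points lie left of both blue points for 19 of the 26 genes, and Egln3, Bnip3 and Eno2 are those where the red points are farthest apart.

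The FGF and ERK targets, through which stem cells leave the naive state, held 13 of 19 genes above 5 with a median of -0.12. Ier3, an immediate early gene, was at 6.09 and 5.82 untreated and at 5.58 and 5.30 with Shld1 (-0.52, SE 0.16). Spry2, a feedback inhibitor of the pathway, was at 8.62 and 8.64 untreated and at 8.43 and 8.03 with Shld1 (-0.40, SE 0.16). Both had groups that did not overlap, with adjusted p = 0.999 (limma). On the 4OHT arrays Ier3 was at 5.43 and 5.57 and Spry2 at 8.32 and 8.44, below both untreated arrays as well. Dusp6, the ERK phosphatase, differed by -0.27 (SE 0.15), whereas Myc differed by 0.33 (SE 0.16). In all, 5 of the 13 were lower without overlap (38.5%, against 23.3% of all genes above 5) and 1 higher, beside 10.7%.

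Markers of embryonic stem cells were well detected: all 10 had a mean above 5, and together they averaged 9.39 and 9.47 untreated and 9.40 and 9.25 with Shld1. Of the other types the cultures could hold, 2 of 9 fibroblast markers (Col1a1 and Thy1), 3 of 7 of primitive endoderm (Gata4, Gata6 and Dab2), 3 of 5 neural, 0 of 5 of mesoderm and 0 of 6 of trophoblast were above 5. The marker means were taken over all measured markers, those below 5 included, and are given without a statement of size. For primitive endoderm the mean was 5.35 and 5.30 untreated and 5.44 and 5.52 with Shld1, without overlap. The wider endoderm list did not share this: its 10 genes above 5 had a median difference of -0.07. For fibroblasts the marker mean was 3.80 and 3.71 against 3.78 and 3.77. Genes under 3 were higher on Shld1 replicate 2, by a median of 0.16. No primitive endoderm marker was that dim, since the lowest averaged 4.33. In RNA of whole cultures, fewer cells of a type and less RNA per cell cannot be told apart.

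Among the genes of the pluripotency network, which keeps stem cells undifferentiated, all 12 core genes were above 5. Limma called 0 of them, and all 12 had 95% intervals within 1.5-fold. Their median was -0.08, their mean 0.01 below the untreated mean on Shld1 replicate 1 and 0.17 below it on replicate 2, and the median turned to 0.02 without replicate 2. Nanog was at 10.89 and 10.94 untreated and at 10.99 and 10.64 with Shld1, so the Shld1 arrays enclosed the untreated ones, as they did for Sox2 (10.63 and 10.65 against 10.67 and 10.54). Tdgf1, a Nodal co-receptor, was at 11.62 and 11.78 untreated and at 11.54 and 11.51 with Shld1 (-0.17, SE 0.14). Sall4 differed by -0.19 (SE 0.15). Of 16 naive genes, 15 were above 5 with a median of -0.08; over all 16 the median was -0.10 and turned to 0.06 without Shld1 replicate 2. Zfp42, which encodes REX1, was at 8.79 on both untreated arrays and at 8.61 and 8.69 with Shld1 (-0.14, SE 0.14), and Gbx2 differed by 0.26 (SE 0.17). Of 11 formative and primed genes, 8 were above 5 with a median of 0.05; Foxd3 was at 5.06 and 5.29 untreated and at 5.40 and 5.65 with Shld1 (0.35, SE 0.16), while Lef1 was at 6.62 and 6.76 against 6.34 and 6.39 (-0.33, SE 0.17). The 5 genes of the two-cell-like state were all below 5.

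The proteasome, which degrades unliganded destabilised fusions, was measured by 31 subunit genes, all above 5. Their median was -0.05, the same as for all genes above 5, 0 were called, and 30 of the 31 intervals lay within 1.5-fold. The lowest was Psmc3, an ATPase of the regulatory particle, at 7.57 and 7.53 untreated and at 7.45 and 7.22 with Shld1 (-0.21, SE 0.17). Psma5, of the core particle, came next at -0.21 (SE 0.16) and was low on Shld1 replicate 2 alone (8.76, against 9.14 on replicate 1 and 9.13 and 9.20 untreated). The highest was Psmd3, at 0.19 (SE 0.14). Ubiquitin and quality control ligases (16 above 5) had a median of -0.06 and cytosolic chaperones (24 above 5) of -0.06, with all intervals of both lists within 1.5-fold. Without overlap 11 of the 24 chaperone genes were lower and 1 higher, beside 23.3% and 10.7% of all genes above 5. For the ligases it was 4 of 16 lower and 1 higher. Whether these counts depended on the scaling was not tested. Dnajb1, a heat shock co-chaperone, differed by -0.16 (SE 0.15) and Hspb1 by 0.15 (SE 0.14), on both of its probe sets.

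The stress response list, to which Nupr1l belonged, had 29 genes measured, of which 28 were above 5 with a median of -0.07. Without overlap 10 of the 28 were lower and 4 higher, beside 23.3% and 10.7% of all genes above 5. Atf4, the factor that drives the response to amino acid shortage, was at 9.37 and 9.40 untreated and at 9.60 and 9.30 with Shld1 (0.07, SE 0.15). Its targets Asns, Trib3 and Chac1 differed by -0.06, -0.05 and -0.21. Dnajb9, a chaperone of the endoplasmic reticulum, was at 7.03 and 7.01 untreated and at 6.82 and 6.32 with Shld1 (-0.45, SE 0.18), and Ddit3, which encodes CHOP, differed by -0.32 (SE 0.16), opposite in sign to Nupr1l. With 4OHT Dnajb9 was at 6.78 and 7.02. Ddit3 was at 6.86 and 7.09 there, below both the untreated and the Shld1 arrays.

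Small nucleolar RNAs set the Shld1 arrays apart from each other more than from the untreated ones. Of 37 above 5, 10 were lower without overlap (27%, against 23.3% of all genes above 5) and 1 higher, beside 10.7%. Their mean was 0.12 above the untreated mean on Shld1 replicate 1 and 0.44 below it on replicate 2, and replicate 2 was the lower of these arrays for 29 of the 37. At 6 of them the Shld1 arrays were over 2-fold apart, and the untreated arrays at 0. Snord15a was at 5.70 and 6.06 untreated but at 7.81 and 4.69 with Shld1. Snora70, which had the lowest difference of all genes above 5 (-0.87, SE 0.31), was at 6.51 on both untreated arrays and at 6.24 and 5.03 with Shld1. Snora75 was the steadier one, at 7.24 and 7.00 untreated and at 6.65 and 6.68 with Shld1 (-0.46, SE 0.17). The median above 5 was -0.15; over all 51 measured it was -0.13 and turned to 0.07 without Shld1 replicate 2.

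The remaining lists had 0 calls (limma), beside a median of -0.05 for all genes above 5. Their medians above 5 were -0.07 for p53 targets (15 genes above 5), -0.02 for NRF2 targets and antioxidants (17), -0.02 for drug metabolism (6), -0.03 for the interferon response (5), -0.07 for LIF, JAK and STAT3 (14), -0.04 for cholesterol synthesis (20), 0.01 for the respiratory chain (29), -0.03 for G2 and M phase (19), -0.03 for DNA replication (22) and -0.03 for apoptosis (12). Sod1, the cytosolic superoxide dismutase, was at 11.25 and 11.23 untreated and at 11.02 and 10.96 with Shld1 (-0.26, SE 0.14). Jak1, a kinase of the LIF receptor, was at 7.40 and 7.35 untreated and at 7.15 and 7.20 with Shld1 (-0.20, SE 0.14). Among cytosolic ribosomal proteins (56 above 5, median -0.01), Rpl34 was at 6.66 and 6.69 untreated and at 6.98 and 7.05 with Shld1 (0.34, SE 0.14). Replication-dependent histones (16) had a median of 0.06, WNT targets (4) of 0.00 after rounding, endoderm genes (10) of -0.07, trophoblast genes (3) of 0.05, neural genes (4) of -0.06, the wider fibroblast list (4) of -0.12, germ cell genes (6) of -0.19 and olfactory receptors (4 of 1027 above 5) of 0.13. The 15 primitive streak and mesoderm genes were all below 5. Stra8, a retinoic acid responsive germ cell gene, was at 7.30 and 7.32 untreated and at 6.92 and 7.07 with Shld1 (-0.31, SE 0.14). With 4OHT it was at 6.84 and 6.95, below both untreated arrays as well.

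Set side by side, 35 lists had 3 or more members above 5. Both Shld1 arrays lay below both untreated arrays in the list mean for 4 of them, calcineurin and NFAT, TGF-beta superfamily receptors, hypoxia and glycolysis, and FGF and ERK targets, and above both for 0. In 2 of them, the receptors and hypoxia and glycolysis, both Shld1 arrays were below the mean of the untreated arrays by more than 0.1. After quantile normalization the mean of the calcineurin list was 0.02 above the untreated mean on Shld1 replicate 2, while the receptors (-0.15 and -0.05), hypoxia and glycolysis (-0.16 and -0.08) and FGF and ERK targets (-0.07 and -0.09) stayed below it on both arrays. These values are set against the untreated mean and not against each untreated array. Gene by gene, both Shld1 arrays were then below it at 3 of 6 receptors, 15 of 26 hypoxia and glycolysis genes and 6 of 13 FGF and ERK targets. Shld1 replicate 2 lay below replicate 1 in 31 of the 35 lists.

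**Figure D5:**
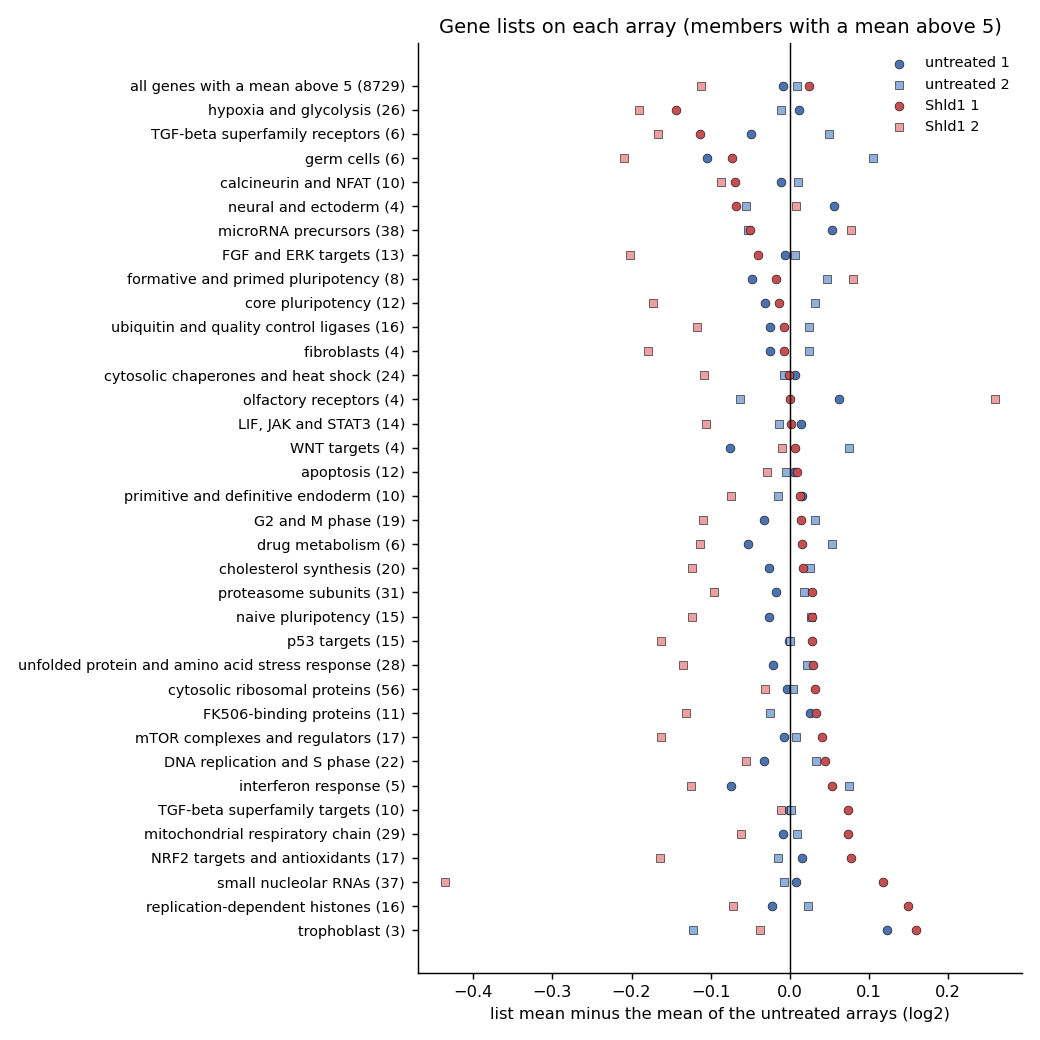
Mean log2 signal of each gene list on each array, minus the mean of the untreated arrays (horizontal axis), for the 35 lists with 3 or more members above 5 and for all 8729 genes above 5 (top line); the number of members is in brackets. Untreated arrays are blue and Shld1 arrays red, circles for replicate 1 and squares for replicate 2; replicate 2 of Shld1 lies left of replicate 1 in 31 of the 35 lists, farthest for small nucleolar RNAs.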

How the data were processed

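Total RNA was hybridised to 6 single-colour Affymetrix arrays. The authors deposited 1 value per probe set on a log2 scale, as read from the values. Their background correction and normalization were not given in the sources used here; limma 3.14 is named, without its role, per the submitters' processing notes. Of 35556 probe sets, 21789 had exactly 1 symbol in the platform annotation, 1621 several and 12146 none; 21698 matched a current gene record by Entrez identifier. Where a gene had several probe sets (999 genes), the brightest was used.

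Group means were fitted over all 6 arrays with limma 3.58.1 in R 4.3.3 (lmFit, eBayes), two-sided, with Benjamini-Hochberg adjustment over 19938 genes, 3 residual and 6.77 prior degrees of freedom. The median SE above 5 was 0.154; the number of arrays limits the precision. No set test was run. The step was tested on simulated data.

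Named genes were, among those above 5 whose groups did not overlap, the 10 with the largest positive and the 10 with the largest negative statistic, since 0 passed, plus Fkbp1a, Fkbp1b, Pou5f1, Sox2, Nanog, Klf4, Zfp42, Mtor, Ppp3ca and Tgfbr1, and up to 3 per list; further list members and the genes over 1.5-fold were named after their values were seen. The members and the 38 lists were chosen with earlier results of these data known; list genes with no probe set of their own are not analysed here. Alternatives were other moderation, normalization, filter, probe set rule, arrays in the fit, array weights, a replicate block and leaving out each array.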

Additional observations from a re-analysis of the deposited data

How the results depend on the processing

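Limma called 0 genes under all 17 alternatives, with the smallest adjusted p from 0.113 (without Shld1 replicate 1) to 1 (limma). The number of genes above 5 at an unadjusted p under 0.05 was 186, against 307 with an intensity trend in the moderation, 290 when only genes above 5 were fitted, and 74 to 780 when single arrays were left out: 101 without untreated replicate 1, 74 without untreated replicate 2 and 780 without Shld1 replicate 1. The number over 1.5-fold was 15, and 15 to 193 when single arrays were left out. The share of genes above 5 with an interval within 1.5-fold was 83.8%, and 45.3% to 82.3% when single arrays were left out, with 45.3% and 48.2% without untreated replicate 1 or 2. A lone array in a group was then assumed to vary like the other groups.

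With the replicate block, 0 genes were called (smallest adjusted p 0.711, limma) and 141 genes above 5 had an unadjusted p under 0.05. The replicate deviations of the untreated and Shld1 arrays correlated at -0.08 over genes. Those of the untreated and 4OHT arrays correlated at 0.05, and those of the 4OHT and Shld1 arrays at -0.19. Whether arrays of the same number share a culture or a batch was not tested. Of 2159 differences of the 127 named genes under the alternatives, 2129 kept their sign. For the 20 genes named by statistic it was 340 of 340. Those 20 genes were picked for groups that do not overlap, so leaving out an array could not change their sign. Duplicate arrays and unstated normalization limit what single differences can show. The median half-width of an interval above 5 was 1.27-fold, for 1 gene at a time and without adjustment for the number of genes. With that adjustment larger differences also missed the threshold: Nupr1l, at 1.93-fold, had an adjusted p of 0.986 (limma).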
